A study of Homo sapiens with 12 samples.

Results

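The 37 genes described here act in homologous recombination and in the Fanconi anaemia pathway, and they were taken from the deposited tables by gene symbol. All 37 were found among the 58735 genes of the tables. They were followed in RNA-seq libraries of 2 human anaplastic thyroid carcinoma cell lines, a cancer that has lost most features of thyroid cells. KHM-5M, cultured in RPMI-1640, has the genotype BRAF V600E, a change that leaves this kinase switched on. TTA-1, cultured in DMEM, has wild-type BRAF. Both lines were given 1 µM of GDC-0994 (ravoxertinib), an inhibitor of the kinases ERK1 and ERK2, or its solvent DMSO, for 24 hours, with 3 libraries in each of the 4 groups. The study asked how the inhibitor acts on tumour cells with and without the BRAF change.

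Homologous recombination repairs a broken chromosome by copying an intact one, most often the sister chromatid made during replication. The broken ends are first cut back to single strands, the single strands then invade the intact duplex, and the joined molecules are later dissolved or cleaved. The Fanconi pathway acts at crosslinks between the strands, where a ubiquitin ligase of many subunits marks the pair FANCD2 and FANCI and hands the lesion to nucleases and to recombination. Many of these genes are expressed most in S phase and G2, when a sister chromatid is at hand.

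The libraries held between 14952970 and 18389915 counts. Each BRAF genotype was represented by 1 cell line, so that genotype, line and medium cannot be told apart. The labels do not say whether the 3 libraries of a group came from separate cultures, and the p-values measure only the spread between these samples. Of 8 thyroid markers 3 reached at least 1 CPM (counts scaled to the library size) on average in the KHM-5M groups (PAX8, FOXE1 and HHEX) and 2 in the TTA-1 groups (PAX8 and HHEX), while thyroglobulin (TG) and the iodide transporter SLC5A5 were at 0 in KHM-5M. Markers of blood, endothelial, melanocytic and neuroendocrine cells summed to between 1.18 and 4.47 CPM in any library. Of these, CD14 reached at least 1 CPM on average in both KHM-5M groups, and PMEL in the GDC-0994 group of each line. Under GDC-0994 in KHM-5M the summed level of the thyroid markers went from between 228.3 and 242.7 CPM to between 129.3 and 137.4 CPM, with falls of PAX8 (-0.81 ± 0.08) and HHEX (-1.17 ± 0.11) among the 3 tested. Of the 3 tested markers of other cell types the endothelial PECAM1 was called as fallen there, from 0.0314 ± 0.0220 FPKM to 0 in every treated library. The part of these markers in the changes of the 37 genes was not tested.

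In DMSO the genes covered a wide range of levels, given as the deposited FPKM (fragments scaled by exon length and library size), which is scaled by length and can be set between genes. UBE2T, the conjugating enzyme that supplies ubiquitin to the Fanconi ligase, was the highest in both lines, at 27.8 ± 2.98 FPKM in KHM-5M and 31.6 ± 5.26 FPKM in TTA-1 (SD, n = 3, as for all means below). In TTA-1 it did not differ beyond its spread from RAD51AP1, at 30.0 ± 5.44 FPKM. NBN (16.4 ± 1.66 FPKM) and FANCI (16.1 ± 0.885 FPKM) followed in KHM-5M and lay within each other's spread. The lowest in KHM-5M were RAD50 at 0.438 ± 0.0537, FANCB at 0.633 ± 0.132 and MCM9 at 0.655 ± 0.0854 FPKM, and the lowest in TTA-1 were RAD54B at 0.625 ± 0.0614 and MCM9 at 0.920 ± 0.119 FPKM. Every one of the 37 genes had enough counts to be tested, and the smallest count was 4, for FANCB in a KHM-5M library with GDC-0994.

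In KHM-5M most of the genes lost the larger part of their transcript under GDC-0994. Of 37 genes 31 fell, 2 rose (RAD50 and HELQ) and 4 were not called (edgeR's quasi-likelihood test, adjusted p below 0.05 over the 16218 genes tested). Among all tested genes 25.1% fell, 24.6% rose and 49.8% were called in either direction. The median log2 fold change was -1.94 for the 37 genes and 0.02 for all tested genes. A log2 fold change of -2 or less was found for 16 of the 37 genes and for 2.87% of all tested genes, and one of -1 or less for 25 genes and for 9.03%. The treated and control libraries did not overlap in FPKM for 33 of the 37 genes, against 60.7% of all tested genes. The lowest value was that of RAD54L (-3.31 ± 0.12, SE) and the highest that of RAD50 (0.68 ± 0.27). In bulk RNA, fewer cells in a stage that expresses a gene and less RNA of that gene per cell cannot be told apart.

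**Figure D1:**
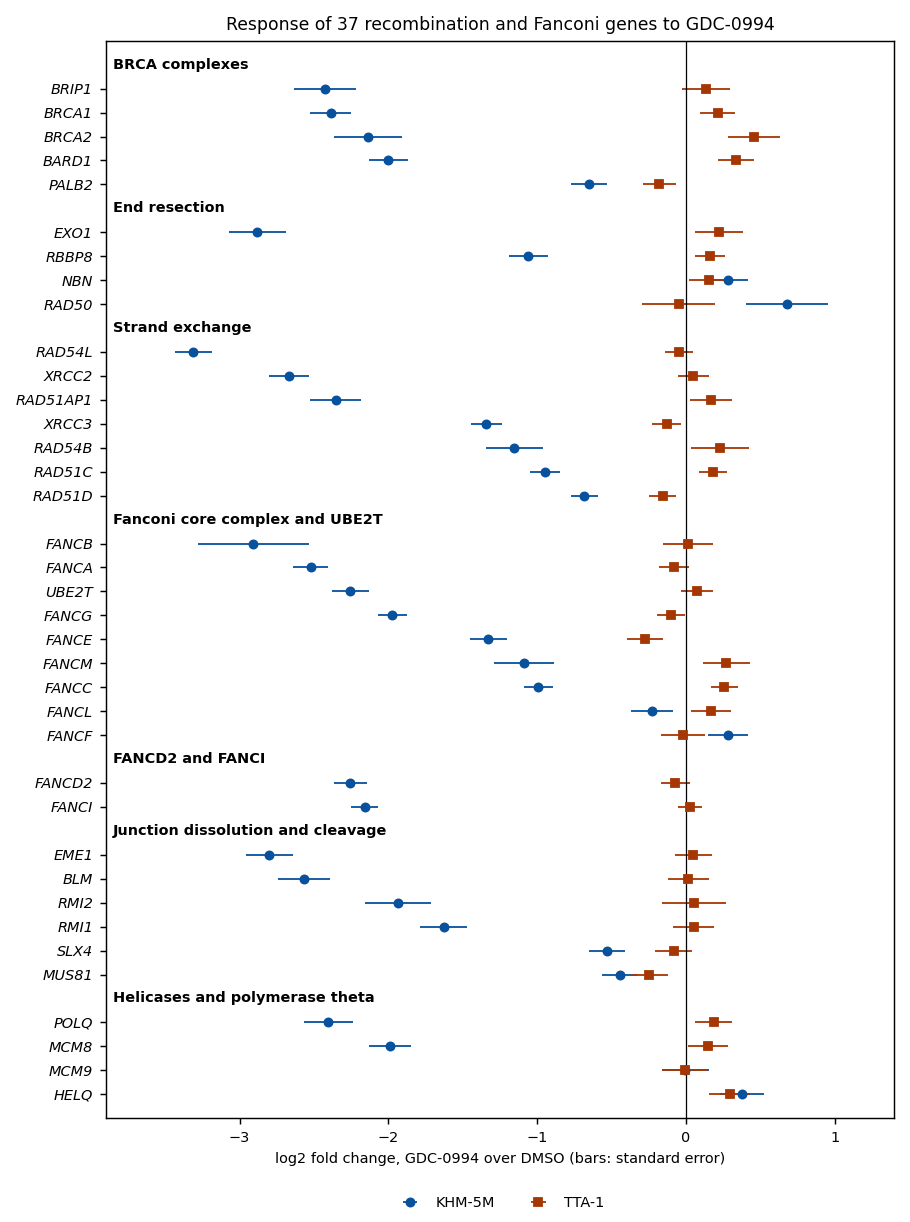
Log2 fold change of GDC-0994 over DMSO (x axis) for each of the 37 genes, grouped by role, in KHM-5M (blue circles) and TTA-1 (brown squares), with bars for the standard error of the edgeR fit. In KHM-5M 31 genes were called as fallen, down to -3.31 for RAD54L, while the TTA-1 values lay between -0.28 and 0.46 and none was called.

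Transcripts of proliferating cells fell beside these genes in KHM-5M. All 12 proliferation markers fell there, among them MKI67 (-2.54 ± 0.10), PCNA (-2.35 ± 0.07), MCM2 (-2.35 ± 0.09) and CCNB1 (-2.03 ± 0.07), and their summed level went from between 2436 and 2547 CPM in DMSO to between 467 and 538 CPM. In TTA-1 none of the 12 was called, with sums of 3058 to 3536 CPM in DMSO and 3404 to 3447 CPM with GDC-0994. The part of the cell cycle in the changes of the recombination and Fanconi genes was not tested.

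Genes that move together raise the question of shared letters in their promoters. RefSeq promoters (GRCh38.p14) were given for 33 of the 37 genes, with NBN, RAD54B, FANCI and RMI2 missing, and the 250 bases before each start were searched on both strands for the E2F letters TTGGCGC, the variants TTCGCGC or else TTCCCGC, and lastly TTGCCGC. They were present for 12 of 33 genes (36.4%), for 13.0% of all 27305 genes of that table and for 21.0% of the 10983 of them that were tested. The median log2 fold change in KHM-5M was -2.17 for the 12 genes with the letters and -1.33 for the 21 without, given as a description. The letters TTTGAA, of the cell cycle homology region, were present for 15.2% of the 33 genes and 11.8% of the tested genes, and CCAAT for 48.5% and 40.9%. The same medians were -2.26 with and -1.80 without TTTGAA, and -1.81 with and -1.97 without CCAAT. A match is a run of letters and does not show binding.

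The 100 bases before the start are shown for 3 genes with the E2F letters that fell by more than 2 on the log2 scale, for FANCL, which has the letters and was not called, and for EXO1, which fell by 2.88 and has none of them in its 250 bases. Capitals mark the E2F letters, on the strand of the gene or as their reverse complement, and -1 is the base before the start. In RAD54L the run begins at -49 (plus strand, chr1:46247588-46247687), and a second start listed for this gene has the same run at -124. In EME1 it begins at -80 (plus strand, chr17:50373129-50373228), in RAD51AP1 at -21 (plus strand, chr12:4538790-4538889) and in FANCL at -99 (minus strand, chr2:58241326-58241425). The window of EXO1 is that of the first of its 2 listed starts (plus strand, chr1:241848104-241848203).
RAD54L: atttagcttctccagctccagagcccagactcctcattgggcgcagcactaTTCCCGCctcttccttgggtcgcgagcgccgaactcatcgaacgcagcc
EME1: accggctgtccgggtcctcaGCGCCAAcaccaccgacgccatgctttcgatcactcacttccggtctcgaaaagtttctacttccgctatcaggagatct
RAD51AP1: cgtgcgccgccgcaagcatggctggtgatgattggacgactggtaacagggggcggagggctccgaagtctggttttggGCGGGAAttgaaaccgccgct
FANCL: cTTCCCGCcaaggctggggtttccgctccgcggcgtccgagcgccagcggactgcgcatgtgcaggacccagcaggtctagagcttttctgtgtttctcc
EXO1: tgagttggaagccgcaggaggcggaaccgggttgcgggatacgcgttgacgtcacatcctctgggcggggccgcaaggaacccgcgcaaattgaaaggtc

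All 5 genes of the BRCA complexes fell in KHM-5M. BRIP1 (ENSG00000136492, chromosome 17, 61681266 to 61863521 in GRCh38, as for all gene positions), a helicase that binds BRCA1, had 2.31, 2.29 and 2.18 FPKM in the DMSO libraries and 0.281, 0.455 and 0.558 FPKM with GDC-0994, a 5.37-fold lower level in the fit (-2.43 ± 0.21, adjusted p = 4.65e-08). BRCA1, the ubiquitin ligase that favours recombination over end joining, fell by 2.39 ± 0.14 on the log2 scale, and its partner BARD1 by 2.00 ± 0.13. BRCA2, which acts after resection, fell by 2.14 ± 0.23. PALB2, which bridges BRCA1 and BRCA2, changed the least of the 5, from 3.04, 2.99 and 3.15 FPKM to 1.71, 2.06 and 2.19 FPKM (-0.65 ± 0.12, adjusted p = 2.76e-04). The treated libraries lay below every DMSO library for each of the 5 genes.

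Among the end resection genes, which cut the broken ends back, 2 fell, 1 rose and 1 was not called. EXO1 (ENSG00000174371, chromosome 1, 241847967 to 241895148), the exonuclease of long resection, went from 8.67, 9.93 and 8.27 FPKM to 0.826, 1.12 and 1.80 FPKM and was 7.37-fold lower (-2.88 ± 0.19, adjusted p = 1.75e-09). RBBP8, which encodes CtIP, the cofactor that starts resection, fell by 1.06 ± 0.13 on the log2 scale. NBN and RAD50 form a complex with the nuclease MRE11 at broken ends, and neither fell. NBN had a log2 fold change of 0.28 ± 0.13 and was not called (adjusted p = 0.0822, between 0.00407 and 0.217 over the alternatives, of which 6 of 26 called it as risen).

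RAD50 (ENSG00000113522, chromosome 5, 132556019 to 132646344) had 0.499, 0.396 and 0.420 FPKM in DMSO and 0.498, 0.618 and 1.04 FPKM with GDC-0994, and the groups overlapped. It was called as risen (0.68 ± 0.27, adjusted p = 0.0493), and without GDC-0994 replicate 3 its log2 fold change was 0.35 (adjusted p = 0.285). It also missed the threshold without DMSO replicate 2 (0.112) or 3 (0.0981) and without GDC-0994 replicate 2 (0.0518). Over all alternatives its adjusted p ranged from 6.9e-04 to 0.319. In the annotation 79.7% of its exon bases are shared with a read-through gene on the same strand, AC116366.3, which had at most 4 counts in any library, and the assignment of reads in the shared part is not given in the sources used here. MRE11, which is not among the 37 genes, fell by 0.70 ± 0.12 on the log2 scale.

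The 7 genes of strand exchange all fell in KHM-5M, by between 3.31 and 0.68 on the log2 scale. RAD54L (ENSG00000085999, chromosome 1, 46247688 to 46278473), a motor protein that acts in the invasion of the intact duplex, had 7.46, 8.75 and 7.35 FPKM in DMSO and 0.799, 0.800 and 0.817 FPKM with GDC-0994. This 9.92-fold lower level was the largest fall among the 37 genes (adjusted p = 1.59e-12). LRRC41, on the opposite strand, shares 25.1% of the exon bases of RAD54L and rose in KHM-5M (0.44 ± 0.07).

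XRCC2, a subunit of a complex that acts in strand exchange, fell by 2.67 ± 0.14 on the log2 scale, and RAD51AP1, which stimulates strand invasion, by 2.35 ± 0.17. XRCC3 fell by 1.34 ± 0.11, RAD54B, a relative of RAD54L, by 1.15 ± 0.19 and RAD51C by 0.95 ± 0.10. RAD51D, which binds XRCC2 in the same complex, fell the least of the 7, from 2.85, 2.59 and 2.63 FPKM to 1.85, 1.61 and 1.66 FPKM (-0.68 ± 0.09, adjusted p = 1.03e-05). Opposite KLC1, which was not called in KHM-5M (-0.02 ± 0.08), shares 76.7% of the exon bases of XRCC3, and FSBP shares 59.1% of those of RAD54B. FSBP had 0 counts in KHM-5M DMSO and between 6 and 12 with GDC-0994.

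Of the Fanconi core complex and UBE2T 7 of 9 genes fell in KHM-5M, and FANCF and FANCL were not called. FANCB (ENSG00000181544, chromosome X, 14835961 to 14873069), a scaffold of the ligase, had 0.483, 0.729 and 0.688 FPKM in DMSO and 0.0744, 0.0622 and 0.119 FPKM with GDC-0994 (-2.91 ± 0.37, adjusted p = 6.09e-06). These values stood on 31 to 46 counts and on 4 to 7 counts, and FANCB had the largest SE of the 37 genes. FANCA, which shares 23.6% of its exon bases with ZNF276 on the opposite strand, fell by 2.52 ± 0.12 on the log2 scale, its partner FANCG by 1.97 ± 0.10 and UBE2T by 2.26 ± 0.12. FANCE fell by 1.33 ± 0.13, FANCM, the motor that anchors the complex to DNA, by 1.09 ± 0.20 and FANCC by 0.99 ± 0.10.

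FANCL, the catalytic subunit of the ligase, had a log2 fold change of -0.23 ± 0.14 (adjusted p = 0.193) while its conjugating enzyme UBE2T fell to 20.9% of its DMSO level. FANCF, an adaptor that joins FANCC and FANCE to the complex, had 4.82, 4.36 and 4.29 FPKM in DMSO and 5.76, 5.68 and 5.25 FPKM with GDC-0994. Its treated libraries lay above every DMSO library, and it was not called (0.28 ± 0.13, adjusted p = 0.0904, between 0.0227 and 0.178 over the alternatives). It passed in 8 of 26 alternatives, upper quartile scaling and removal of the length and GC trend among them.

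FANCD2 and FANCI, the pair that the ligase marks, fell by similar amounts. FANCD2 went from 4.91, 5.55 and 5.04 FPKM to 1.18, 0.987 and 1.14 FPKM (-2.26 ± 0.11, adjusted p = 5.92e-11). FANCI went from 16.4, 16.8 and 15.1 FPKM to 3.37, 3.66 and 3.95 FPKM (-2.16 ± 0.09, adjusted p = 4.86e-12). Both had treated libraries far below every DMSO library.

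All 6 genes of junction dissolution and cleavage fell. EME1 (ENSG00000154920, chromosome 17, 50373220 to 50381483), the partner of the nuclease MUS81, went from 3.08, 2.97 and 3.60 FPKM to 0.519, 0.475 and 0.408 FPKM and was 6.97-fold lower (-2.80 ± 0.16, adjusted p = 2.89e-10). MUS81 itself went from 8.61, 8.52 and 8.22 FPKM to 6.89, 6.14 and 5.92 FPKM, with no overlap and a 1.36-fold lower level (-0.45 ± 0.11, adjusted p = 0.00384). BLM, the helicase that dissolves double Holliday junctions, fell by 2.57 ± 0.17 on the log2 scale, with its cofactors RMI2 by 1.94 ± 0.22 and RMI1 by 1.63 ± 0.16. SLX4, a scaffold for several nucleases, fell by 0.53 ± 0.12. LRRC59, on the opposite strand, shares 16.4% of the exon bases of EME1 and had 53.0 ± 1.94 FPKM in DMSO and 30.9 ± 1.90 FPKM with GDC-0994 in KHM-5M, and its part in the value of EME1 was not tested.

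Of the helicases and polymerase theta 2 fell, 1 rose and 1 was not called. POLQ (ENSG00000051341, chromosome 3, 121431427 to 121546641), the polymerase of an end joining route that uses short homologies, went from 2.04, 2.16 and 1.93 FPKM to 0.381, 0.327 and 0.474 FPKM (-2.40 ± 0.16, adjusted p = 2.90e-09). MCM8 fell by 1.99 ± 0.14 on the log2 scale, and MCM9, with which it forms a helicase, had a log2 fold change of -0.00 ± 0.16 (adjusted p = 0.992). HELQ, a helicase that acts at stalled forks, went from 1.64, 2.12 and 1.86 FPKM to 2.29, 2.29 and 2.88 FPKM without overlap. It was called as risen (0.38 ± 0.15, adjusted p = 0.0417), and did not pass without DMSO replicate 1 (0.1195) or 3 (0.0640) or GDC-0994 replicate 3 (0.133), and its adjusted p ranged from 0.0168 to 0.133 over the alternatives.

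**Figure D2:**
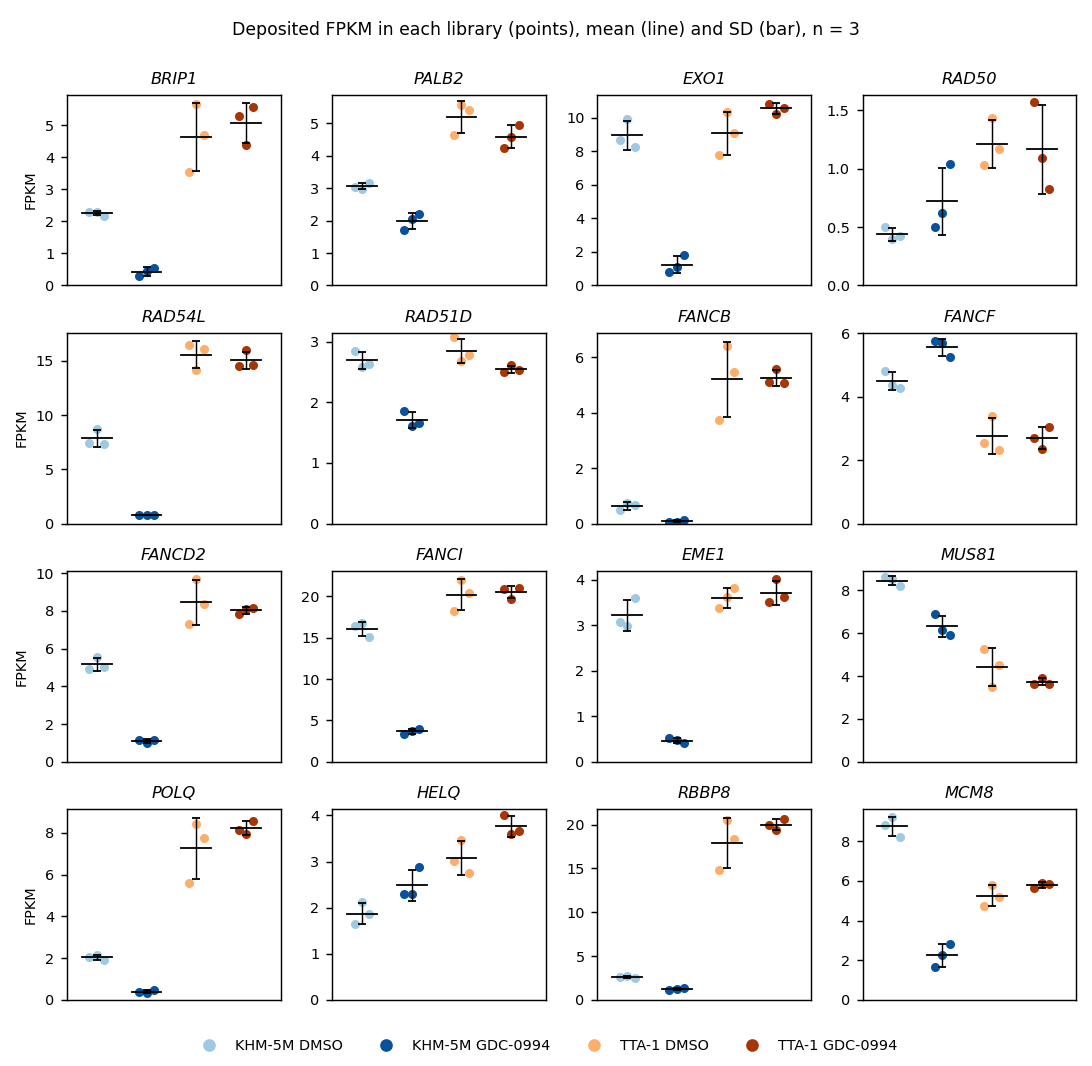
Deposited FPKM (y axis, linear from 0) of 16 genes in each of the 12 libraries (points), with the group mean (line) and SD (bar), n = 3. In KHM-5M the treated libraries of RAD54L sit between 0.799 and 0.817 FPKM, below every DMSO library, while those of FANCF and HELQ sit above; in TTA-1 the treated and DMSO libraries of RAD54L overlap.

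Some partners of known complexes changed unequally, which was described as the ratio of their FPKM within each library and not tested. The pairs were not chosen by a stated rule. The ratio of EME1 to MUS81 was 0.381 ± 0.0492 in KHM-5M with DMSO and 0.0739 ± 0.00442 with GDC-0994, and 0.837 ± 0.196 and 0.994 ± 0.0289 in TTA-1. MCM8 to MCM9 went from 13.6 ± 2.39 to 3.36 ± 0.616 in KHM-5M, with 5.71 ± 0.250 and 6.39 ± 0.835 in TTA-1. XRCC2 to RAD51D went from 1.44 ± 0.177 to 0.365 ± 0.0462 in KHM-5M, with 2.53 ± 0.434 and 2.90 ± 0.195 in TTA-1. In each of these pairs the KHM-5M libraries with GDC-0994 lay below all other libraries.

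The ratio of FANCG to FANCF in KHM-5M was 2.96 ± 0.149 in DMSO and 0.620 ± 0.0621 with GDC-0994, and that of BRCA2 to PALB2 was 0.403 ± 0.0527 and 0.143 ± 0.0441. In TTA-1 the ratio of BRCA2 to PALB2 was 0.657 ± 0.109 in DMSO and 1.03 ± 0.0738 with GDC-0994, also without overlap and in the opposite direction. Other pairs kept closer ratios. FANCD2 to FANCI was 0.322 ± 0.0190 and 0.302 ± 0.0422 in KHM-5M, with overlapping libraries. RMI2 to RMI1 was 0.504 ± 0.0436 and 0.415 ± 0.165, and BRCA1 to BARD1 0.818 ± 0.0319 and 0.621 ± 0.0945, the latter without overlap. The lines themselves differed in the last pair, since TTA-1 had BRCA1 to BARD1 ratios of 2.48 ± 0.148 and 2.26 ± 0.113.

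**Figure D3:**
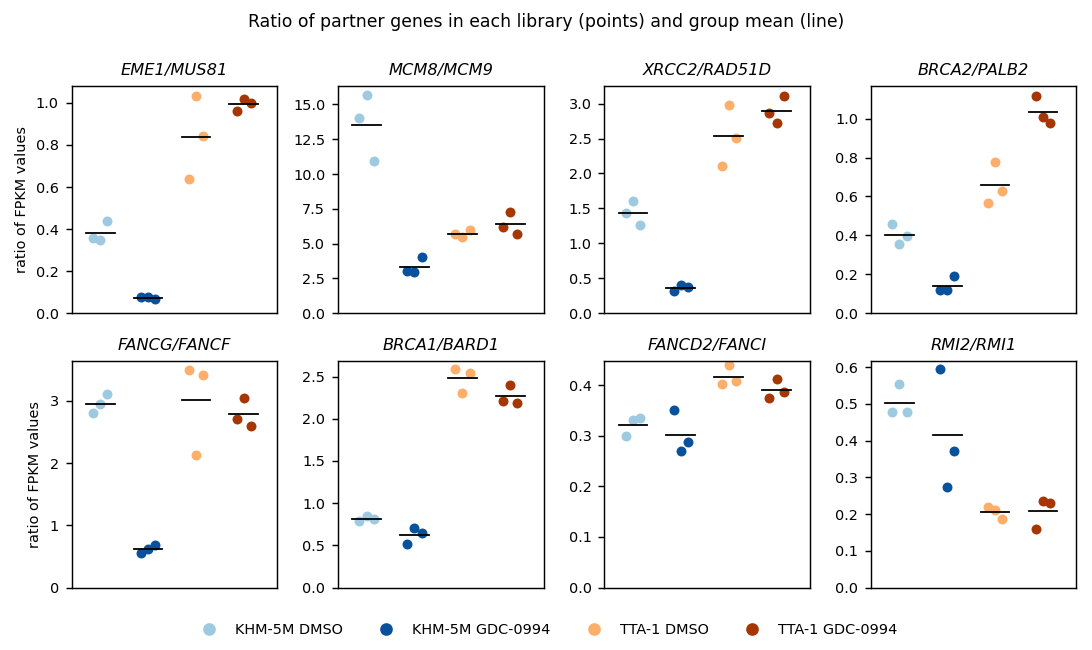
Ratio of the FPKM of 2 partner genes (y axis, no unit, linear from 0) in each library (points) and group mean (line) for 8 pairs. The mean ratio of EME1 to MUS81 is 0.0739 in KHM-5M with GDC-0994 and 0.381 with DMSO, while that of FANCD2 to FANCI is 0.302 and 0.322.

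Other repair genes in KHM-5M changed in both directions. Of 41 tested genes of a list of other recombination and Fanconi genes 24 fell and 5 rose, and the median was -0.68. The ligase gene RFWD3 (-1.61 ± 0.07) and PSMC3IP, a cofactor of strand exchange (-3.23 ± 0.17), fell, and WDR48, the cofactor of the deubiquitinase USP1 (0.57 ± 0.12), and ABRAXAS1 (0.85 ± 0.18), a scaffold of a BRCA1 complex, rose.

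Of 17 tested end joining genes 9 fell and 3 rose (median -0.36), with falls of PARP1 (-0.98 ± 0.07) and PRKDC (-0.89 ± 0.08) and rises of TP53BP1 (0.44 ± 0.07) and POLL (0.40 ± 0.12). Of 7 mismatch repair genes 3 fell and none rose (median -0.24), MSH6 by 1.11 ± 0.07 among them. Of 17 tested nucleotide excision repair genes 4 fell and 1 rose (median 0.04), the damage sensor gene DDB2 by -1.34 ± 0.11 and, upward, ERCC6 by 1.14 ± 0.11. Of 18 base excision repair genes 9 fell and 2 rose (median -0.31). FEN1 (-2.88 ± 0.09) and LIG1 (-2.13 ± 0.10), which also process and join DNA fragments during replication, fell with the smallest p-values of this list, and the glycosylase genes TDG (0.50 ± 0.10) and OGG1 (0.27 ± 0.11) rose. For all these lists the share of all tested genes to set the counts against is 25.1% fallen and 24.6% risen.

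In TTA-1 none of the 37 genes was called for GDC-0994 over DMSO. Of all tested genes 3.43% were called there, 2.24% as fallen and 1.18% as risen. The median over the 37 genes was 0.05, and 24 of 37 values were above 0. With DESeq2 and with limma 0 genes were called too, and 4 genes had an unadjusted p under 0.05 in edgeR: FANCC (0.26 ± 0.09), BARD1 (0.33 ± 0.12), BRCA2 (0.46 ± 0.17) and FANCE (-0.28 ± 0.12). The share of all tested genes under that unadjusted cut is not given here, so this count has no background to be set against. The 95% intervals of the 37 log2 fold changes reached at the lowest -0.57, for RAD50, and at the highest 0.82, for BRCA2. Treated and control libraries did not overlap for BRCA2, FANCC, HELQ and RAD51D, 4 of 37 genes against 18.8% of all tested genes.

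The TTA-1 values of the genes with the deepest falls in KHM-5M overlapped between treatments. RAD54L had 16.4, 14.2 and 16.1 FPKM in DMSO and 14.6, 16.0 and 14.6 FPKM with GDC-0994 (-0.05 ± 0.09). FANCB had 3.74, 6.41 and 5.48 FPKM and then 5.10, 5.58 and 5.06 FPKM (0.02 ± 0.17). EXO1 had 7.77, 10.4 and 9.12 FPKM and then 10.9, 10.2 and 10.6 FPKM (0.22 ± 0.16). For EXO1 and FANCB the spread in TTA-1 lay mostly among the DMSO libraries.

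EME1 had 3.37, 3.62 and 3.81 FPKM in DMSO and 3.50, 4.01 and 3.63 FPKM with GDC-0994 in TTA-1 (0.05 ± 0.13). POLQ had 5.61, 8.42 and 7.75 FPKM and then 8.15, 7.97 and 8.59 FPKM (0.19 ± 0.12). FANCD2 had 7.31, 9.68 and 8.35 FPKM and then 7.83, 8.10 and 8.12 FPKM (-0.07 ± 0.10). Again the treated libraries lay within or close to the range of the DMSO libraries. BRIP1 ranged from 3.54 to 5.65 FPKM in DMSO and from 4.38 to 5.55 FPKM with GDC-0994 (0.13 ± 0.16), and FANCI from 18.2 to 22.0 and from 19.7 to 21.0 FPKM (0.03 ± 0.08).

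Genes with small changes in KHM-5M were set beside their TTA-1 values in the same way. FANCF had 2.55, 3.39 and 2.31 FPKM in DMSO and 2.70, 2.36 and 3.04 FPKM with GDC-0994 (-0.02 ± 0.15). HELQ had 3.02, 3.47 and 2.76 FPKM and then 4.02, 3.59 and 3.67 FPKM (0.29 ± 0.14, adjusted p = 0.290), with every treated library above every DMSO library. MUS81 had 5.28, 3.51 and 4.53 FPKM and then 3.63, 3.93 and 3.64 FPKM (-0.25 ± 0.12). RAD51D had a log2 fold change of -0.16 ± 0.09, PALB2 of -0.18 ± 0.11 and RAD50 of -0.05 ± 0.24.

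The remaining genes had log2 fold changes in TTA-1 that were not called either. In the BRCA group BRCA1 had 0.21 ± 0.12, and in resection RBBP8 had 0.16 ± 0.10 and NBN 0.15 ± 0.13. For strand exchange the values were 0.05 ± 0.11 for XRCC2, 0.17 ± 0.14 for RAD51AP1, -0.13 ± 0.10 for XRCC3, 0.23 ± 0.19 for RAD54B and 0.18 ± 0.09 for RAD51C. For the Fanconi genes they were -0.08 ± 0.10 for FANCA, -0.10 ± 0.10 for FANCG, 0.27 ± 0.16 for FANCM, 0.17 ± 0.14 for FANCL and 0.07 ± 0.11 for UBE2T. Among the last genes BLM had 0.01 ± 0.14, RMI1 0.05 ± 0.14, RMI2 0.05 ± 0.21, SLX4 -0.08 ± 0.12, MCM8 0.15 ± 0.14 and MCM9 -0.01 ± 0.15.

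The TTA-1 DMSO libraries stood apart from each other on these genes. Replicate 1 was the lowest of the 3 for 23 of 37 genes and replicate 2 the highest for 26, with median log2 ratios to the other libraries of the group of -0.22 and 0.28. The 37 genes have a median GC content of 41.9%, against 48.3% for the tested genes, and over 5859 well expressed genes the ratio of a library to the others of its group correlated with GC content at 0.778 in replicate 1 and -0.740 in replicate 2. Without DMSO replicate 2 the fit called 4 of the 37 genes in TTA-1 and 15.7% of all genes tested there, with rises of BARD1 (0.47), BRCA2 (0.63) and FANCM (0.49) and a fall of MUS81 (-0.41). Over the 37 genes themselves the ratio of DMSO replicate 1 to the others correlated with GC content at 0.72 (rank correlation), and that of replicate 2 at -0.68. With the length and GC trend removed 0 of the 37 genes were called in TTA-1 for GDC-0994 over DMSO. With the replicate block as well 1 gene (BRCA2) was called. How much of each TTA-1 value goes with GC content was not tested. In KHM-5M with GDC-0994 replicate 1 was the lowest for 20 genes and replicate 3 the highest for 19, with GC correlations of 0.653 and -0.616, and 31 genes fell in KHM-5M with each library left out in turn and with the length and GC trend removed.

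Across the other repair lists 2 of 100 tested genes were called in TTA-1, a share no higher than the 3.43% of all tested genes. FAAP100, a partner of FANCB and FANCL in the ligase, fell by 0.35 ± 0.08 on the log2 scale (adjusted p = 0.0285), and ERCC2, a helicase of nucleotide excision repair, fell by 0.45 ± 0.08 (adjusted p = 0.00522). In KHM-5M these had log2 fold changes of 0.11 ± 0.08 and 0.04 ± 0.08 and were not called.

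The response to GDC-0994 differed between the lines for 29 of the 37 genes, and in each of these the log2 fold change was more negative in KHM-5M (test of the difference in the same edgeR model). Of all tested genes 27.9% were called for the difference, 15.6% as more negative and 12.3% as more positive in KHM-5M. The median difference was -1.87 over the 37 genes and 0.02 over all tested genes. The most negative differences were those of RAD54L (-3.26 ± 0.16, adjusted p = 1.37e-10), EXO1 (-3.10 ± 0.25) and FANCB (-2.92 ± 0.42). On the scale of log2(FPKM + 1) without a filter, in limma, the difference of FANCB was -0.62 and was not called (adjusted p = 0.0669). The smallest one called was that of PALB2 (-0.47 ± 0.17, adjusted p = 0.0421), which was lost in most alternatives, with adjusted p up to 0.143.

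For 8 genes the difference was not called: NBN (0.13 ± 0.18), RAD50 (0.73 ± 0.37), FANCF (0.30 ± 0.20), FANCL (-0.40 ± 0.20), HELQ (0.08 ± 0.20), MCM9 (0.00 ± 0.22), MUS81 (-0.20 ± 0.17) and SLX4 (-0.45 ± 0.17, adjusted p = 0.0628). MUS81 and SLX4 were called as fallen in KHM-5M and not in TTA-1, and the test of the difference did not separate the lines for them. The rise of HELQ in KHM-5M was likewise not distinct from its value in TTA-1. With the length and GC trend removed the difference of SLX4 passed (-0.51, adjusted p = 0.00613), and that of RAD50 passed with no filter (0.76, adjusted p = 0.0133) and without TTA-1 GDC-0994 replicate 1 (1.05, adjusted p = 0.0365).

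The lines also differed before treatment. In DMSO 22 of the 37 genes were lower in KHM-5M than in TTA-1, 8 were higher and 7 were not called, where 36.8% of all tested genes were lower, 39.6% higher and 76.5% called in either direction. The median log2 difference was -0.62 for the 37 genes and 0.03 for all tested genes. Libraries of the lines did not overlap for 28 of 37 genes, against 77.5% of all tested genes. With library totals in place of TMM scaling the median of all genes moved by 0.10 in DMSO and by 0.13 in GDC-0994 (by 0.10 and 0.16 with upper quartile scaling), and 21 genes were then lower and 8 higher in KHM-5M in DMSO.

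The largest difference was in FANCB, which had 0.483, 0.729 and 0.688 FPKM in KHM-5M and 3.74, 6.41 and 5.48 FPKM in TTA-1 (-3.06 ± 0.21, adjusted p = 5.83e-10). RBBP8 had 2.66, 2.77 and 2.50 FPKM in KHM-5M and 14.8, 20.5 and 18.3 FPKM in TTA-1 (-2.78 ± 0.11, adjusted p = 7.59e-13). In both genes the lines were far apart. POLQ (-1.85 ± 0.13), FANCM (-1.80 ± 0.17), BRCA2 (-1.50 ± 0.19), RAD50 (-1.49 ± 0.27), RAD51AP1 (-1.42 ± 0.14), BRCA1 (-1.27 ± 0.12), BRIP1 (-1.06 ± 0.17), BLM (-1.05 ± 0.14) and RAD54L (-1.01 ± 0.10) were also lower in KHM-5M by more than 1 on the log2 scale.

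Smaller negative differences in DMSO were called for RAD51C (-0.97 ± 0.09), XRCC2 (-0.91 ± 0.11), PALB2 (-0.79 ± 0.12), HELQ (-0.74 ± 0.15), FANCD2 (-0.73 ± 0.10), FANCC (-0.71 ± 0.09), RMI1 (-0.68 ± 0.14), FANCA (-0.62 ± 0.10), MCM9 (-0.51 ± 0.16), FANCI (-0.35 ± 0.08) and FANCL (-0.31 ± 0.14, adjusted p = 0.0474). The call of FANCL was lost in most alternatives and its sign turned with the length and GC trend removed. In that setting RMI1 (-0.14, adjusted p = 0.168), MCM9 (-0.09, adjusted p = 0.554) and FANCI (-0.10, adjusted p = 0.113) were not called either. NBN, EXO1, RAD51D, XRCC3, FANCE, UBE2T and EME1 were not called, with log2 differences between -0.21 and -0.04. With the length and GC trend removed NBN (0.38), EXO1 (0.29) and UBE2T (0.33) were called as higher in KHM-5M, and XRCC3 (-0.74), FANCE (-0.49) and EME1 (-0.28) as lower.

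MUS81 was the gene most in excess in KHM-5M, with 8.61, 8.52 and 8.22 FPKM against 5.28, 3.51 and 4.53 FPKM in TTA-1 (0.91 ± 0.12, adjusted p = 2.32e-06). CFL1 and EFEMP2, on the opposite strand, share 14.1% of the exon bases of MUS81, and CFL1 had 184.6 ± 5.70 FPKM in KHM-5M and 78.6 ± 25.4 FPKM in TTA-1 in DMSO; its part in the value of MUS81 was not tested. MCM8 had 8.81, 9.21 and 8.23 FPKM against 4.75, 5.79 and 5.19 FPKM (0.71 ± 0.13, adjusted p = 1.23e-04). Neither gene overlapped between the lines. FANCG (0.70 ± 0.09), FANCF (0.68 ± 0.14), RAD54B (0.63 ± 0.19), RMI2 (0.61 ± 0.20), SLX4 (0.47 ± 0.12) and BARD1 (0.31 ± 0.12) were higher in KHM-5M too. With the length and GC trend removed SLX4 had 0.03 (adjusted p = 0.755). BARD1, whose libraries overlapped between the lines, had 0.20 (adjusted p = 0.112) without TTA-1 DMSO replicate 1 and missed the threshold without TTA-1 DMSO replicate 3 (0.0622) or KHM-5M DMSO replicate 1 (0.0570) or 2 (0.0529), and RMI2 missed it without TTA-1 DMSO replicate 3 (0.48, adjusted p = 0.0611). Of 12 proliferation markers 4 were higher and 5 lower in KHM-5M in DMSO.

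With GDC-0994 the gap between the lines covered nearly all of these genes. In the treated libraries 33 of 37 genes were lower in KHM-5M than in TTA-1, FANCF and MUS81 were higher, and NBN and SLX4 were not called, where 39.1% of all tested genes were lower, 41% higher and 80.1% called. The libraries did not overlap for 34 of 37 genes, against 82% of all tested genes. The median log2 difference was -2.10, and 20 genes had a value of -2 or less (9.64% of all tested genes), against 2 in DMSO (7.48% of all tested genes). All 12 proliferation markers were also lower in KHM-5M with GDC-0994, with a median log2 difference of -2.54. The 2 line comparisons share no library, and each shares its libraries with the treatment comparisons.

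FANCB reached -5.98 ± 0.29, with 0.0852 ± 0.0299 FPKM in KHM-5M and 5.25 ± 0.289 FPKM in TTA-1. POLQ (-4.44 ± 0.16), RAD54L (-4.28 ± 0.12), BRCA2 (-4.10 ± 0.22) and RBBP8 (-4.00 ± 0.12) followed. MCM8, FANCG, RAD54B, RMI2 and BARD1 were higher in KHM-5M in DMSO and lower there with GDC-0994, at -1.42 ± 0.14, -1.17 ± 0.10, -0.75 ± 0.20, -1.38 ± 0.23 and -2.02 ± 0.13. For BARD1 and RMI2 the call in DMSO, and for RAD54B that with GDC-0994, was lost in some alternatives. FANCF (0.99 ± 0.14) and MUS81 (0.70 ± 0.12) were higher in KHM-5M in both conditions. NBN had 20.4 ± 3.38 FPKM in KHM-5M and 19.6 ± 0.768 FPKM in TTA-1 with GDC-0994, within each other's spread. With the length and GC trend removed NBN was called as higher in KHM-5M (0.47) and SLX4 as lower (-0.48), while RAD50 (-0.44, adjusted p = 0.0619), RAD54B (-0.26, adjusted p = 0.303), FANCL (-0.16, adjusted p = 0.183), HELQ (-0.19, adjusted p = 0.176) and MCM9 (-0.14, adjusted p = 0.321) were no longer called, which left 29 genes lower.

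**Figure D4:**
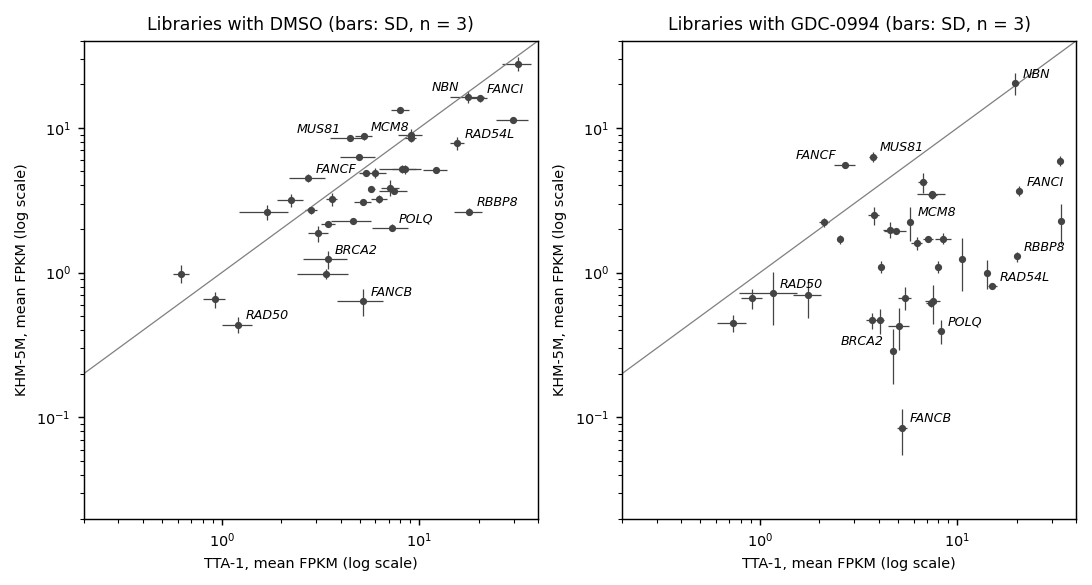
Mean FPKM of each of the 37 genes in TTA-1 (x axis, log scale) against KHM-5M (y axis, log scale), with DMSO (left) and GDC-0994 (right), with bars for the SD (n = 3) and a line of equal levels. In DMSO the points lie on both sides of the line, with 22 genes called as lower and 8 as higher in KHM-5M, and with GDC-0994 33 genes were called as lower, FANCB the furthest from the line.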

How the data were processed

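Polyadenylated RNA was sequenced in 12 libraries, 3 per group, prepared without a step that marks the strand, per the labels' protocols. CASAVA, HISAT2 2.0.5, featureCounts 1.5.0-p3 and GRCh38 are named in the submitters' processing notes, without their roles. The deposited counts are raw counts per gene. The deposited FPKM were scaled by the authors by gene length and a library size. Starts, ends and exon lengths of all 58735 gene IDs matched GENCODE 29, from which shared exon bases and GC content (longest transcript) were computed. Without strand, reads where genes overlap cannot be assigned to either.

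Counts were filtered with filterByExpr at a minimum count of 10 and a minimum total of 15, TMM factors were applied, and the fit was made in edgeR 4.0.16 (R 4.3.3) as a quasi-likelihood model of all 12 libraries and 8 residual degrees of freedom. P-values were adjusted over 16218 genes by the Benjamini-Hochberg method, and rose and fell refer to genes with an adjusted p below 0.05. SEs were derived from each F statistic, and 95% intervals from the SE and the t quantile at the total degrees of freedom of the fit. The model was tested on simulated data. Alternatives used DESeq2 1.42.0, limma 3.58.1 on log2 of the deposited FPKM plus 1 or 0.1, other scalings and filters, removal of the length and GC trend, thinning, a replicate block and leaving out each library. Well expressed genes in the GC correlation had a mean log2 CPM above 5. The 37 genes and the lists were chosen with earlier results of these data known. All 37 are named. Values per library are given for the lowest and highest log2 fold change of each role in KHM-5M and for the 2 largest line differences each way in DMSO. Up to 2 risen and 2 fallen genes of each other list were named by smallest p, with 4 proliferation markers, and some results are not reported here; genes named outside these rules (MRE11, FAAP100, ERCC2 and genes that share exons) were chosen after their values were seen. The column names of the KHM-5M GDC-0994 libraries were matched by replicate number.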

Additional observations from a re-analysis of the deposited data

Results flagged for a closer look

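The effect of GDC-0994 differed between the lines for 29 genes by a test of the difference itself, as the log2 fold change in KHM-5M minus that in TTA-1. In the BRCA complexes the differences were -2.60 for BRCA1, -2.34 for BARD1, -2.56 for BRIP1, -0.47 for PALB2 and -2.59 for BRCA2. In end resection they were -1.22 for RBBP8 and -3.10 for EXO1. In strand exchange they were -2.52 for RAD51AP1, -1.13 for RAD51C, -0.53 for RAD51D, -2.72 for XRCC2, -1.21 for XRCC3, -3.26 for RAD54L and -1.38 for RAD54B. In the Fanconi core complex and UBE2T they were -2.44 for FANCA, -2.92 for FANCB, -1.25 for FANCC, -1.05 for FANCE, -1.87 for FANCG, -1.36 for FANCM and -2.33 for UBE2T. FANCD2 had -2.18 and FANCI -2.19. In junction dissolution and cleavage they were -2.58 for BLM, -1.68 for RMI1, -1.99 for RMI2 and -2.85 for EME1. POLQ had -2.59 and MCM8 -2.14. The groups of 3 libraries were too small for a test of outlying samples.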

How the results depend on the processing

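In KHM-5M 31 genes fell in every edgeR and DESeq2 alternative without a minimum fold change, 30 of 34 tested with limma on FPKM of at least 1, and 25 with a minimum log2 fold change of 1. Leaving out each library gave 31 to 35 called genes in KHM-5M, 0 to 4 in TTA-1, 28 to 29 for the difference, and 28 to 30 (DMSO) and 34 to 35 (GDC-0994) between the lines. In TTA-1 the count was 4 without DMSO replicate 2, and 1 (BRCA2) with no filter and with the replicate block plus removal of the length and GC trend. With a minimum log2 fold change of 1 the lines differed in 11 genes in DMSO. With the length and GC trend removed, alone or with the replicate block, the line difference turned sign in DMSO for NBN (0.38 and 0.38), EXO1 (0.29 and 0.29), FANCL (0.20 and 0.20) and UBE2T (0.33 and 0.33), and in GDC-0994 for NBN (0.47 and 0.47) and SLX4 (-0.48 and -0.47); the cause was not tested. Deviations from the group means of same-numbered libraries correlated at -0.0265, 0.0454 and -0.196 in KHM-5M and at 0.378, -0.212 and -0.225 in TTA-1. Those of libraries with different numbers ranged from -0.21 to 0.217 in KHM-5M and from -0.522 to 0.528 in TTA-1. Whether the replicate numbers pair libraries is not settled by these values, and the labels do not say. With the replicate block 31 genes were called in KHM-5M, all fallen, as RAD50 (adjusted p = 0.0514) and HELQ (0.0520) no longer passed, 0 in TTA-1, 29 for the difference, and 30 and 35 between the lines. Depth limits FANCB in KHM-5M most, at 4 to 7 counts with GDC-0994.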
